A study of Mus musculus with 11 samples.

Results

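The genes described here are 10 that encode cytosolic nucleic acid sensors, their adaptors and enzymes that break down nucleic acids or nucleotides. They are Ddx58, Ifih1, Dhx58, Mavs, Cgas, Sting1 (Tmem173), Zbp1, Eif2ak2, Trex1 and Samhd1. They were found by symbol in a count table of 55487 gene IDs, and all 10 were among the 15135 genes that passed the filter on low counts. Transcripts were measured by RNA sequencing of total RNA, depleted of ribosomal RNA, from bone marrow-derived macrophages of C57BL/6J mice aged 2 to 5 months. These are cultured cells grown from marrow for 5 to 6 days with CMG-conditioned medium, at 10% during differentiation and 2% afterwards. The 7 control libraries came from macrophages given no CYR61, and the 4 CYR61 libraries from macrophages given 0.5 µg/ml of CYR61 (also called CCN1), a matrix-associated protein that binds integrins, for 24 h. Neither labels nor files state whether the controls received a vehicle or whether the libraries of a group came from separate mice or cultures. The p-values therefore speak only for the variation among these 11 libraries, part or all of which may be technical.

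Cells detect viral and misplaced nucleic acids in the cytosol through a small set of receptors. RIG-I-like receptors bind viral RNA and signal through the mitochondrial adaptor MAVS, while cGAS binds DNA and makes the second messenger cGAMP, which activates STING at the endoplasmic reticulum. Each route leads to kinases that activate interferon regulatory factors, and many of the sensors are themselves known to be induced by interferon.

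Libraries held 14912123 to 21047654 counts in control and 17390272 to 20760322 counts in CYR61 macrophages, and the 10 genes each had at least 263 counts in every library. Together they took 0.0814 to 0.0911% of the counts in control libraries and 0.0979 to 0.104% in CYR61 libraries. Levels are given as CPM, with each library's total adjusted by TMM factors, which correct for differences in library composition. Each ± is an SD over the 7 control or the 4 CYR61 libraries. Folds and adjusted p-values are those of the edgeR quasi-likelihood test fitted to all 15135 genes with Benjamini-Hochberg adjustment, and a gene was called at an adjusted p under 0.05. The defining macrophage markers were abundant: Adgre1 stood at 744 ± 31.9 CPM, Csf1r at 2992 ± 96.3 CPM and Cd68 at 1207 ± 71.3 CPM in control libraries. In such bulk samples, fewer cells that express a gene and less of its RNA per cell cannot be told apart.

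With CYR61, 8 of the 10 genes rose, 0 fell and 2, Mavs and Cgas, did not pass. Over all genes tested 7.96% were called, 5.33% higher and 2.63% lower. Among genes averaging 10 CPM or more, where all 10 lie, 7.87% were called higher. The largest rise was that of Zbp1, at 1.96-fold, and the other 7 rises ran from 1.13-fold to 1.33-fold. The median of the 10 genes was 1.2-fold, against 0.995-fold for all genes tested. In 8 of the 10 genes every CYR61 library stood above every control library, which held for 4.65% of all genes tested and for 6.79% of those averaging 10 CPM or more, and in 0 of the 10 every CYR61 library stood below every control (2.5% of all genes tested). These 8 are not the 8 called genes: Mavs did not overlap and was not called, and Sting1 was called and overlapped. The count of 8 depends on the TMM factors, which ran from 1.004 to 1.023 in control and from 0.971 to 0.993 in CYR61 libraries. These factors raise CYR61 levels relative to control levels. Mavs (62.3 against 62.8 CPM) and Dhx58 (64.3 against 64.5 CPM) were narrowly separated, and the groups of both overlap when the factors are left out.

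**Figure D1:**
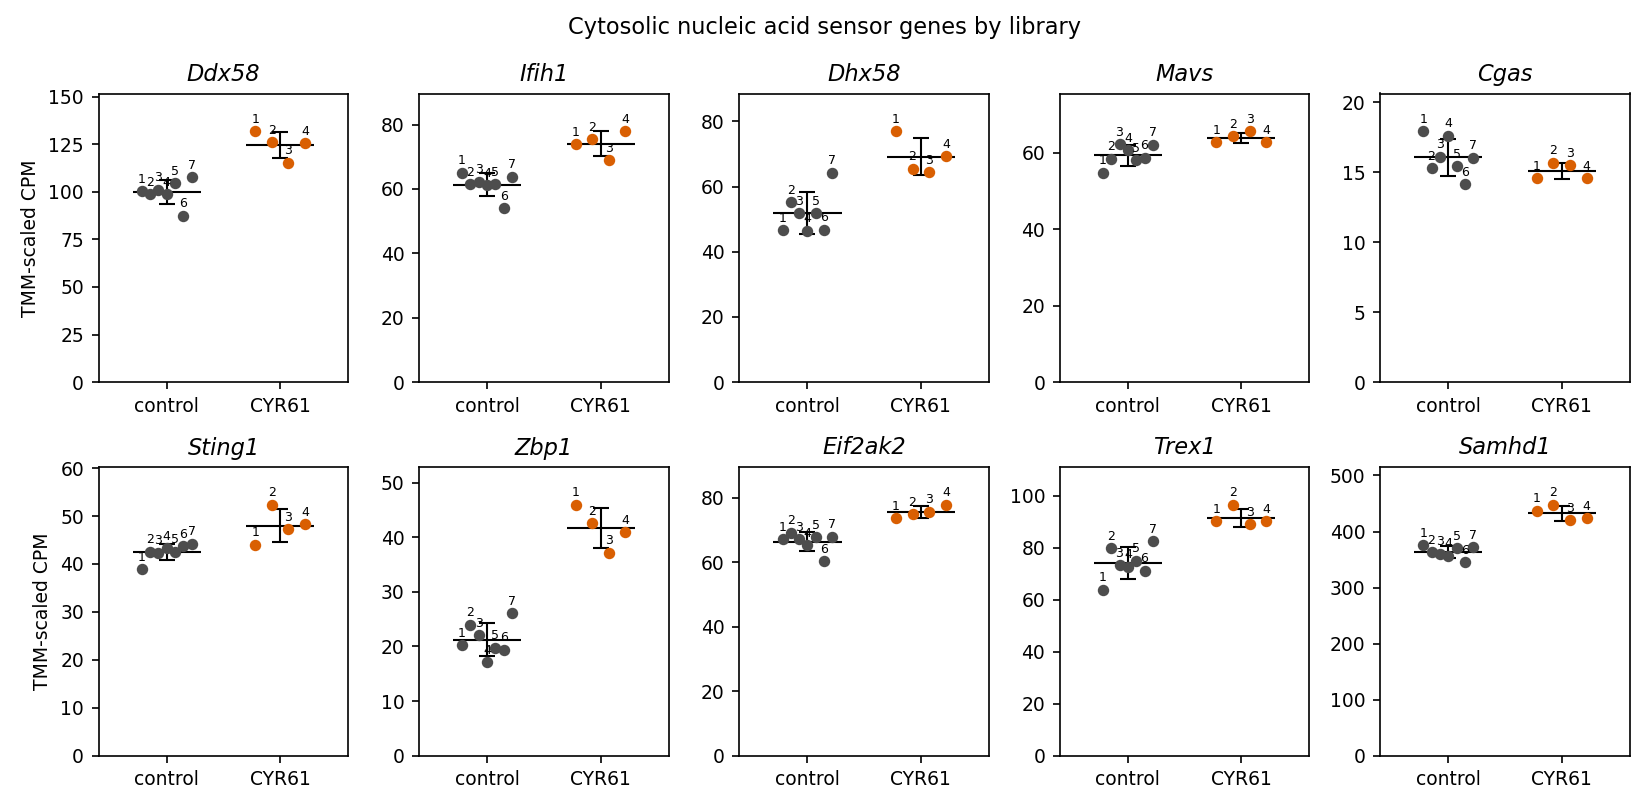
Level of each of the 10 genes in each library, as TMM-scaled CPM on axes that start at 0. Points are libraries labelled with their replicate number, with a line at the mean and bars of 1 SD for 7 control and 4 CYR61 libraries; Zbp1 shows the widest gap between the groups (at most 26.1 against at least 37.2 CPM), and the groups of Sting1 and Cgas overlap.

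Promoter windows were matched by symbol for 7 of the genes in RefSeq (GRCm38.p6), in 8 windows of 300 bases that run from 250 bases before the annotated start to 50 after it. Zbp1, Dhx58 and Sting1, which all rose, were not searched. The windows were searched on both strands for motifs of interferon signalling. The first was the core of the interferon-stimulated response element (ISRE), which interferon regulatory factors bind, taken as GAAA, any 2 bases and GAAA again. It was present in the windows of Ifih1, Ddx58 and Eif2ak2 and in 3.44% of all 32851 windows in the table. All 3 matches lie within 42 bases after the annotated start and do not overlap a match of the second motif. They are shown as the only matches to this motif in the 8 windows. Their part in the rises was not tested. The stretches are given 5′ to 3′ along the gene, with the match in capitals, as it reads on the gene's strand (in Ddx58 the motif itself is on the opposite strand).
Ifih1, chr2:62646206-62646235, minus strand: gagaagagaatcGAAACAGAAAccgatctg
Ddx58, chr4:40239804-40239833, minus strand: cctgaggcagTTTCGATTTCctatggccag
Eif2ak2, chr17:78882535-78882564, minus strand: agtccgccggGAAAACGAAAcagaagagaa
In these stretches the match covers bases 33 to 42 after the start of Ifih1, 3 to 12 of Ddx58 and 19 to 28 of Eif2ak2, counted from 1 at the start base. No match to these letters lies in the windows of Mavs, Cgas, Trex1 or Samhd1, of which Trex1 and Samhd1 rose.

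A second motif, TTCNNNGAA, known as the gamma-activated site (GAS), reads the same on either strand, so each match counts once. It was present in the windows of Samhd1 and Eif2ak2 and in 8.3% of all windows. These matches lie farther upstream, at bases -235 to -227 of Samhd1 and -178 to -170 of Eif2ak2. They are shown with their surroundings as the only matches to this motif in the windows. GENCODE M21 places the start of Samhd1 upstream of the RefSeq start, at base 157135265.
Samhd1, chr2:157135247-157135346, minus strand: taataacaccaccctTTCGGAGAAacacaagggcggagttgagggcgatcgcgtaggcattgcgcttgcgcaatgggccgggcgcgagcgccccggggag
Eif2ak2, chr17:78882696-78882795, minus strand: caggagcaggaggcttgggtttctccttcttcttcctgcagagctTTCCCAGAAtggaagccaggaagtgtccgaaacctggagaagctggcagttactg
A match of letters is a description of the sequence, and binding was not measured.

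Gene positions below are those of GENCODE M21 (GRCm38), matched by Ensembl ID. The RNA receptors come first. Ddx58 (ENSMUSG00000040296, chromosome 4, 40203773 to 40239828, minus strand) encodes RIG-I, a helicase that recognises RNA with a free triphosphate at its end. Its level in control libraries ran from 87.4 CPM through a median of 100.4 to 108 CPM, and CYR61 replicates 1 to 4 stood at 132, 126, 115 and 126 CPM. The groups did not overlap, and replicate 6 was the lowest control. Ddx58 rose 1.25-fold, from 99.8 ± 6.35 to 125 ± 6.92 CPM (log2 fold change 0.32, SE 0.0469, adjusted p = 0.000222, edgeR).

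Ifih1 (ENSMUSG00000026896, chromosome 2, 62595798 to 62646255, minus strand) encodes MDA5, the receptor for long duplex RNA. Control libraries ran from 54.0 CPM through a median of 61.5 to 65.1 CPM, and the CYR61 libraries stood at 73.9, 75.5, 68.8 and 77.9 CPM. Replicate 6 was again the lowest control, and the groups did not overlap. The rise was 1.21-fold, from 61.3 ± 3.52 to 74.1 ± 3.85 CPM (log2 fold change 0.28, SE 0.0448, adjusted p = 0.000588, edgeR).

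Dhx58 (ENSMUSG00000017830, chromosome 11, 100694884 to 100704271, minus strand) encodes LGP2, a helicase without signalling domains that modulates RIG-I and MDA5. Its control libraries spread widely, from 46.5 CPM through a median of 51.8 to 64.3 CPM, and the CYR61 libraries stood at 77.0, 65.5, 64.5 and 69.4 CPM. The groups were separated by only the gap between control replicate 7 (64.3 CPM) and CYR61 replicate 3 (64.5 CPM). Dhx58 rose 1.33-fold, from 51.9 ± 6.42 to 69.1 ± 5.67 CPM (log2 fold change 0.41, SE 0.0745, adjusted p = 0.00151, edgeR). Without CYR61 replicates 1 and 4 together its call was lost (log2 fold change 0.32, adjusted p = 0.053, edgeR). Its counts were fractional in all 11 libraries, and an antisense gene, Dhx58os, overlaps its exons at 0.48 ± 0.176 CPM in controls.

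The adaptor Mavs (ENSMUSG00000037523, chromosome 2, 131234063 to 131248025, plus strand), which carries the signal of RIG-I and MDA5 at mitochondria, moved less. Controls ran from 54.8 CPM through a median of 58.8 to 62.3 CPM, and the CYR61 libraries stood at 62.8, 64.4, 65.7 and 62.8 CPM, all above the highest control. With 59.3 ± 2.63 against 63.9 ± 1.39 CPM, the fold was 1.08 with a 95% interval of 1.02 to 1.13, which did not pass after adjustment (adjusted p = 0.0846, edgeR). The adjusted p ran from 0.0506 to 0.294 over 21 alternative fits, none of which called it. In the authors' deposited table the log2 fold change of Mavs was 0.114 with an adjusted p of 0.0229.

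In the DNA arm, Cgas (ENSMUSG00000032344, chromosome 9, 78430526 to 78443237, minus strand) encodes the enzyme that makes cGAMP when it binds DNA. Control libraries ran from 14.1 CPM through a median of 16.0 to 17.9 CPM, and the CYR61 libraries stood at 14.6, 15.7, 15.5 and 14.6 CPM, all within the range of the controls and all below their median. The means were 16.1 ± 1.33 and 15.1 ± 0.588 CPM, a fold of 0.942 with a 95% interval of 0.855 to 1.04 (adjusted p = 0.511, edgeR). An increase as large as that of Sting1 (1.13-fold) lies outside this interval. The counts of Cgas were fractional in every library, and a pseudogene on the other strand, Gm8093, overlaps its exons at 1.27 ± 0.319 CPM in controls.

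Sting1 (ENSMUSG00000024349, chromosome 18) encodes STING, the receptor of cGAMP and adaptor of the DNA route. Control libraries ran from 38.9 CPM through a median of 42.6 to 44.2 CPM, and the CYR61 libraries stood at 44.0, 52.4, 47.2 and 48.4 CPM. CYR61 replicate 1 lay just below the highest control, replicate 7, so the groups overlapped by a single library. Sting1 rose 1.13-fold, from 42.5 ± 1.73 to 48.0 ± 3.45 CPM (log2 fold change 0.17, SE 0.0452, adjusted p = 0.022, edgeR). This was the least secure of the 8 calls: it was lost without CYR61 replicate 2 (adjusted p = 0.124), without CYR61 replicate 4 (adjusted p = 0.0581) and in the fit that left out the TMM factors (adjusted p = 0.0704).

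Zbp1 (ENSMUSG00000027514), which senses nucleic acids in the left-handed Z-form and can start necroptosis through RIPK3, showed the largest difference. Controls ran from 17.2 CPM through a median of 20.3 to 26.1 CPM, and the CYR61 libraries stood at 46.0, 42.6, 37.2 and 40.9 CPM. The lowest CYR61 library was far above the highest control, again replicate 7. Zbp1 went from 21.2 ± 3.02 to 41.7 ± 3.67 CPM, a 1.96-fold rise with a 95% interval of 1.73 to 2.22 (adjusted p = 1.09e-06, edgeR), and it ranked 26 of 15135 genes by p. It lies on chromosome 2, 173206612 to 173218923, on the minus strand.

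Eif2ak2 (ENSMUSG00000024079, chromosome 17, 78852564 to 78882573, minus strand) encodes PKR, a kinase that duplex RNA activates and that stops translation by phosphorylating eIF2. Controls ran from 60.3 CPM through a median of 67.3 to 69.2 CPM, and the CYR61 libraries stood at 73.7, 75.004, 75.7 and 77.9 CPM. The groups did not overlap, although the change was small. It rose 1.14-fold, from 66.4 ± 2.93 to 75.6 ± 1.76 CPM (log2 fold change 0.19, SE 0.036, adjusted p = 0.00258, edgeR). Of the 7 genes searched, it was the one whose promoter window held a match to both motifs printed above.

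The remaining genes encode enzymes that break down nucleic acids or nucleotides. Trex1 (ENSMUSG00000049734, chromosome 9, 109057933 to 109059734, minus strand) encodes a 3′ exonuclease that degrades cytosolic DNA and so limits cGAS. Its controls ran from 63.9 CPM through a median of 73.3 to 82.6 CPM, and the CYR61 libraries stood at 90.2, 96.6, 89.1 and 90.2 CPM, with no overlap. It rose 1.23-fold, from 74.1 ± 6.08 to 91.5 ± 3.42 CPM (log2 fold change 0.30, SE 0.0511, adjusted p = 0.000801, edgeR). The exons of Trex1 overlap those of Atrip on the same strand, and its counts were fractional in all 11 libraries. Its level may therefore depend on how reads were shared between these genes. Atrip stood at 17.5 ± 1.51 and 19.1 ± 0.625 CPM and did not pass (adjusted p = 0.302, edgeR).

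Samhd1 (ENSMUSG00000027639, chromosome 2, 157097533 to 157135265, minus strand) encodes a hydrolase that depletes deoxynucleotides and restricts retroviruses in myeloid cells. It was the most abundant of the 10, from 345 CPM through a median of 363 to 376 CPM in controls and at 437, 448, 419.9 and 424 CPM in the CYR61 libraries. The gap between the groups was wide against their spread, with a coefficient of variation of 2.89% in controls and 2.96% with CYR61. The rise of 1.19-fold, from 363 ± 10.5 to 432 ± 12.8 CPM, had the lowest adjusted p after Zbp1 (adjusted p = 4.04e-05, edgeR).

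**Figure D2:**
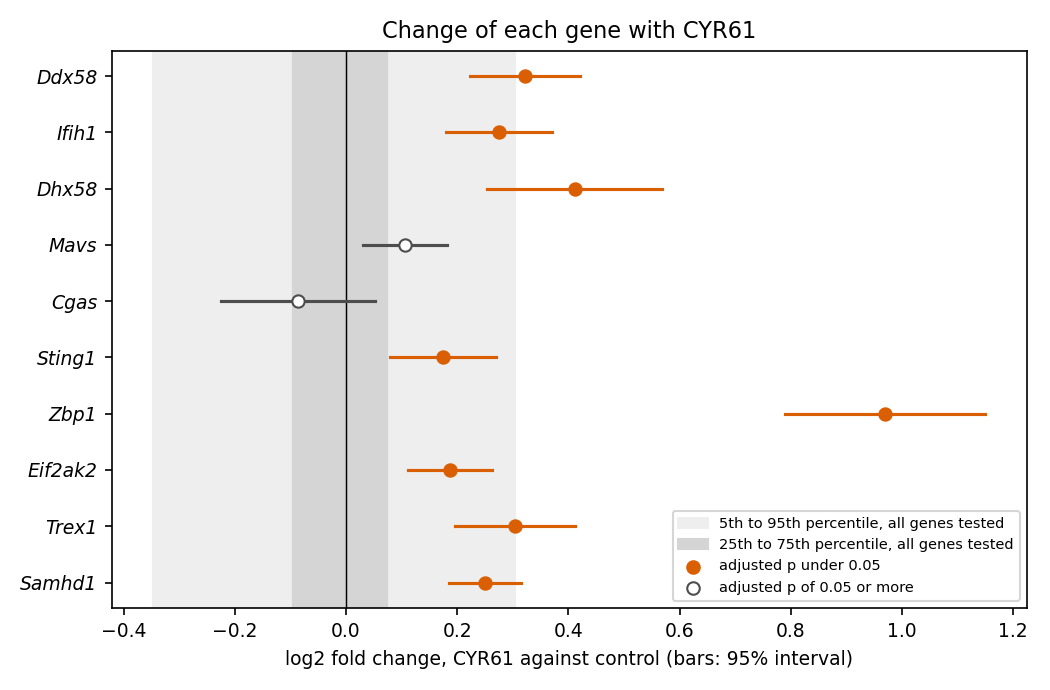
Fold change of each gene with CYR61 on a log2 scale, with bars for the 95% interval and shading for the central 50% and 90% of all 15135 genes tested. Filled points passed the adjusted p threshold; Zbp1 stands apart at 0.97, and the intervals of Mavs and Sting1 lie above 0 while that of Cgas spans it.

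Levels of different genes were compared per kilobase of the longest annotated transcript (GENCODE M21), as CPM per kb. In control macrophages the order began with the hydrolases, Samhd1 at 92.6 ± 2.68 and Trex1 at 68.4 ± 5.61 CPM per kb, which were separated from each other and from all others in every library. Ddx58 (25.8 ± 1.64), Dhx58 (21.5 ± 2.66), Mavs (19.4 ± 0.862) and Sting1 (18.5 ± 0.752 CPM per kb) followed, and each overlapped its neighbour in this order. Below them stood Eif2ak2 at 15.4 ± 0.679, Ifih1 at 11.2 ± 0.644, Zbp1 at 6.39 ± 0.909 and Cgas at 3.97 ± 0.328 CPM per kb, none of which overlapped the next. The order by mean was the same with CYR61, where the range of Zbp1 (11.2 to 13.8 CPM per kb) came to overlap that of Ifih1 (12.6 to 14.3 CPM per kb). Dhx58 (at least 26.7 CPM per kb) no longer overlapped Mavs (at most 21.5 CPM per kb) in the CYR61 libraries. The order depends on the transcript lengths used: with the median length of the annotated transcripts, Eif2ak2 moved from place 7 to place 2, at 99.7 CPM per kb. Trex1 moved from place 2 to place 4, at 69.3 CPM per kb, between Ddx58 (69.9) and Dhx58 (67.8 CPM per kb). Its separation from the sensor genes thus holds only for the longest transcripts.

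**Figure D3:**
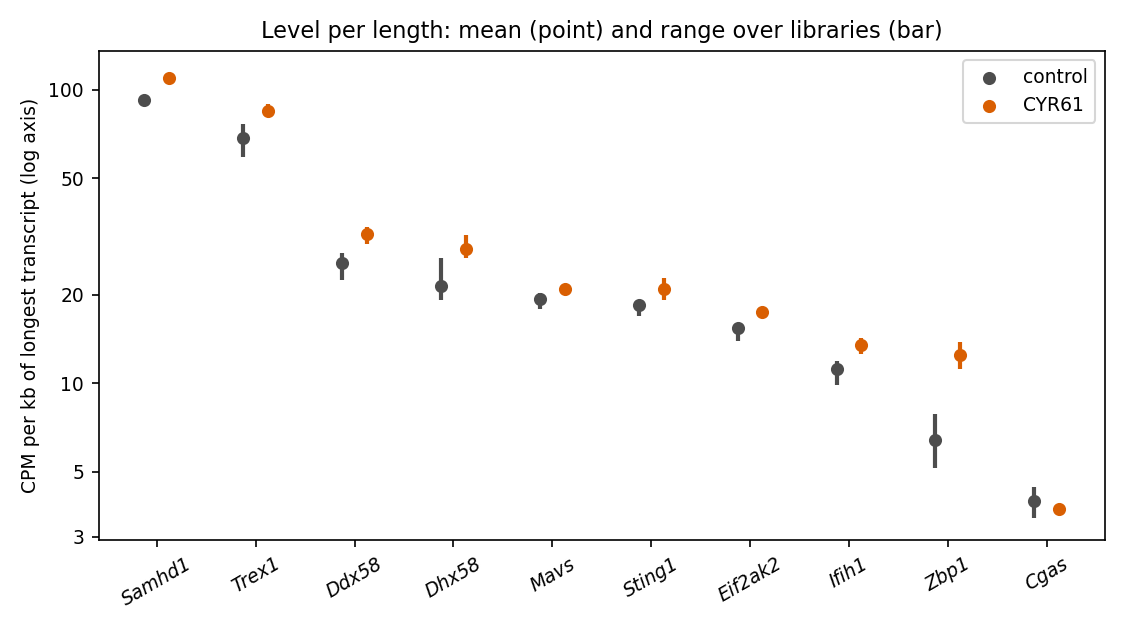
Level of each gene per kilobase of its longest annotated transcript in control and CYR61 libraries, on a log axis. Points are means and bars run from the lowest to the highest library; Samhd1 (92.6 CPM per kb in controls) and Cgas (3.97) mark the ends of the order in both groups.

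Whether the genes of a pair changed by unequal amounts was examined with 6 ratios of counts within each library, which do not depend on the scaling between libraries. Each difference in mean log2 ratio was tested by a two-sided exact permutation test over all 330 ways to place 7 of the 11 libraries in one group and 4 in the other, with Benjamini-Hochberg adjustment over the 6 ratios. The smallest p this test can give is 0.00303.

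In the RNA arm, Ddx58 counts per Mavs count ran from 1.49 through a median of 1.69 to 1.83 in controls and from 1.75 to 2.10 with CYR61, a 1.16-fold higher ratio with 3 of 4 CYR61 libraries above all controls (exact permutation, adjusted p = 0.0182). The ratio of Dhx58 to Mavs went from 0.767 to 1.03 in controls to 0.982 to 1.23 with CYR61, 1.24-fold higher with 2 of 4 CYR61 libraries above all controls (exact permutation, adjusted p = 0.0182). That of Ifih1 to Mavs was 1.12-fold higher, with 1 of 4 CYR61 libraries above all controls, and did not pass (exact permutation, adjusted p = 0.0576). So the transcripts of RIG-I and LGP2 rose relative to that of MAVS, and for MDA5 the difference was not separated from the spread.

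In the DNA arm, Cgas counts per Sting1 count ran from 0.323 to 0.461 in controls and from 0.30 to 0.332 with CYR61, 0.835 times control with 2 of 4 CYR61 libraries below all controls (exact permutation, adjusted p = 0.0255). Cgas per Trex1, the sensor relative to the nuclease that removes its ligand, ran from 0.191 to 0.281 in controls and from 0.162 to 0.174 with CYR61. This was 0.76 times control with 4 of 4 CYR61 libraries below all controls (exact permutation, adjusted p = 0.0182). Outside these arms, Zbp1 per Eif2ak2 compares 2 separate sensors. It ran from 0.263 to 0.384 in controls and from 0.491 to 0.624 with CYR61, 1.73-fold higher with 4 of 4 above all controls (exact permutation, adjusted p = 0.0182). The Cgas to Sting1 and Ddx58 to Mavs ratios no longer passed without CYR61 replicate 1, 2 or 4, and the other 3 without replicate 1 or 4. With 3 CYR61 libraries left the smallest p of this test is 0.00833, which the adjustment can raise to 0.05, depending on the other ratios. Zbp1 to Eif2ak2 and Cgas to Trex1 each had an adjusted p of 0.05 without CYR61 replicate 1 and without replicate 4 (exact permutation), just short of passing. Their groups stayed fully separated in these subsets. Whether these differences rest on a single library therefore cannot be decided from the lost calls.

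**Figure D4:**
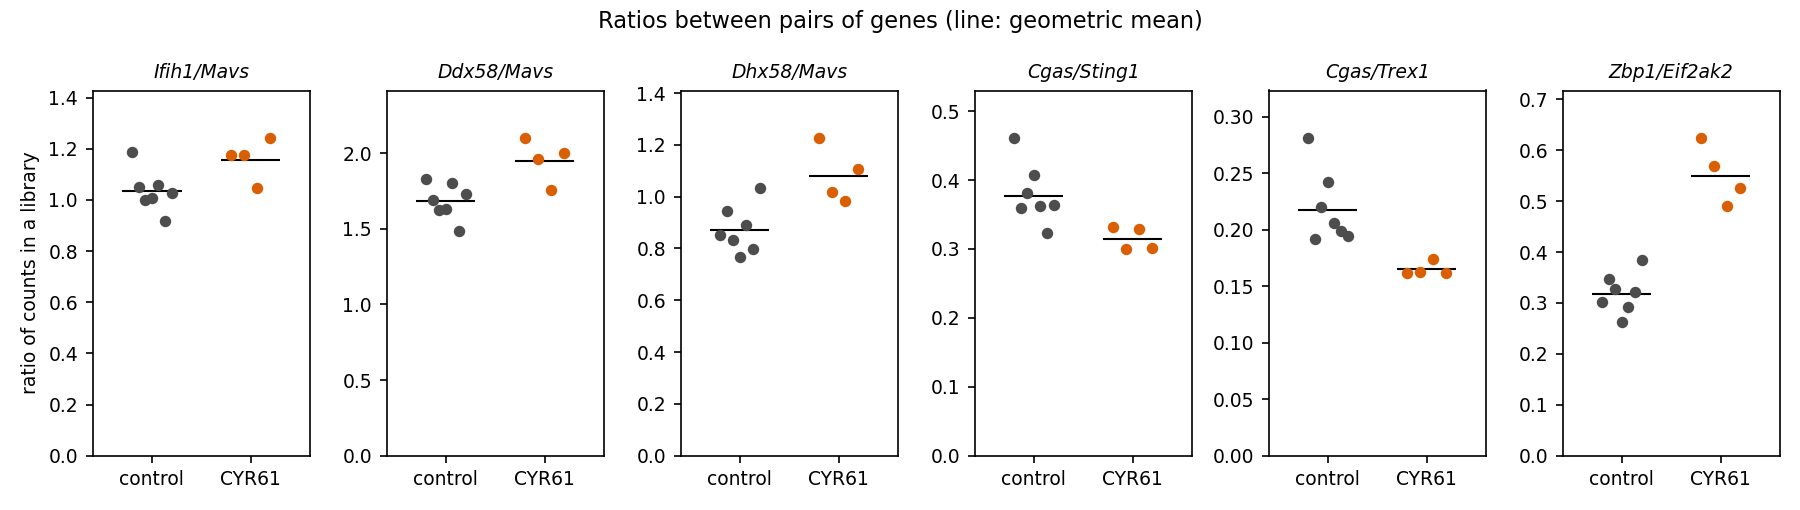
Ratio of the counts of 2 genes within each library for 6 pairs, on axes that start at 0. Points are libraries and lines are geometric means of 7 control and 4 CYR61 libraries; Zbp1/Eif2ak2 (at most 0.384 against at least 0.491) and Cgas/Trex1 (at least 0.191 against at most 0.174) do not overlap.

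The order of the controls was similar for some of the genes and not for others, and no test of this was run. On the log2 scale, control replicate 7 was above the control mean for 10 of the 10 genes, Cgas by a small margin that is absent on the CPM scale. It was the highest control for 5 of them (Ddx58, Dhx58, Sting1, Zbp1 and Trex1). This library also stood nearest the CYR61 libraries on the main axis of variation over all genes tested (first principal component). It lay at -0.613 there, the other controls at -12.8 to -4.95 and the CYR61 libraries at 8.92 to 15.1. Control replicate 6 was above the log2 mean for 1 gene and was the lowest control for 5 (Ddx58, Ifih1, Cgas, Eif2ak2 and Samhd1), with a median log2 deviation of -0.13 from the control mean. Control replicate 1 went both ways: it was the highest control for 3 genes (Ifih1, Cgas and Samhd1) and the lowest for 3 others (Mavs, Sting1 and Trex1). Among the CYR61 libraries, replicate 3 was lowest for 6 of the 10 genes and replicate 2 highest for 4. The coefficient of variation in controls was highest for Zbp1 (14.2%) and Dhx58 (12.4%), the genes with the largest folds, and lowest for Samhd1. Without control replicate 7 or without control replicate 6, the count of genes that rose was 8 in each case.

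The rest of nucleic acid sensing was described with 102 other genes in 7 lists, of which 90 were tested. Of these 90, 13 rose (14.4%), 0 fell and 77 did not pass, with a median of 1.01-fold. Over all genes tested 5.33% were called higher and 2.63% lower, and 7.87% were called higher among genes averaging 10 CPM or more. Without the TMM factors 7 of the listed genes rose and 3 fell, the falls being those of Traf6, Rnf26 and Dnase1l1. In 5 of the other alternatives 1 listed gene fell. Without CYR61 replicate 2 the count of rises was 7. Among the 13 genes, 6 were called in all 21 alternative fits: Irf7, Ikbke, Ddx60, Ifi204, Mlkl and Myd88.

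In the list of kinases, TRAF proteins and interferon regulatory factors downstream of the sensors, 2 of 15 rose, against 5.33% over all genes tested. Irf7, the factor that amplifies interferon production, rose 1.59-fold, from 94.5 ± 17.2 to 150.01 ± 6.28 CPM (adjusted p = 0.000171, edgeR). Ikbke, which encodes a kinase that phosphorylates such factors, rose 1.2-fold, from 93.9 ± 3.15 to 113 ± 7.22 CPM (adjusted p = 0.000213, edgeR). The ubiquitin ligase gene Traf6 stood at 51.9 ± 2.31 and 47.7 ± 0.577 CPM, with every CYR61 library below every control, and did not pass (adjusted p = 0.0558, edgeR). Azi2 stood at 53.8 ± 2.66 and 57.4 ± 2.74 CPM (adjusted p = 0.198, edgeR). Of the other core components, Tbk1 stood at 84.5 and 85.5 CPM and Irf3 at 39.3 and 39.8 CPM.

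Among regulators of the RIG-I-like receptors and RNA-binding cofactors, 1 of 17 tested genes rose, near the share of 5.33% over all genes tested. The gene that rose was Ddx60, an interferon-inducible helicase gene, at 23.1 ± 1.67 and 30.7 ± 0.679 CPM (1.33-fold, adjusted p = 7.79e-05, edgeR). Trim25, which encodes a ubiquitin ligase that activates RIG-I, stood at 265 ± 9.71 and 286 ± 17.8 CPM (adjusted p = 0.1003, edgeR). Dhx36 (34.3 and 32.1 CPM) and Tarbp2 (23.2 and 24.7 CPM) did not pass either.

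Among regulators of cGAS and STING and other DNA sensors, 1 of 21 tested genes rose, near the share of 5.33% over all genes tested. Ifi204, an Ifi200 family DNA sensor gene whose counts were fractional in all 11 libraries, rose 1.38-fold, from 79.7 ± 8.27 to 110.1 ± 4.04 CPM (adjusted p = 7.6e-05, edgeR). The ubiquitin ligase genes Rnf26 (58.3 and 54.9 CPM) and Rnf5 (36.7 and 35.2 CPM) and the DNA repair nuclease gene Mre11a (24.04 and 22.5 CPM) did not pass.

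Of 16 tested genes of nucleic acid editing and clearance, 2 rose by small amounts, against 5.33% higher over all genes tested. Pld4 and Pld3, which encode endolysosomal exonucleases, went from 601 ± 14.05 to 650.1 ± 14.4 CPM (1.08-fold, adjusted p = 0.0161, edgeR) and from 528 ± 20.8 to 568 ± 3.61 CPM (1.08-fold, adjusted p = 0.0496, edgeR). The call of Pld3 was lost in 13 and that of Pld4 in 4 of 21 alternatives, among them the fit without CYR61 replicate 2 for both. Adar, which encodes the editing enzyme that marks duplex RNA as self, stood at 141 ± 6.9 and 156 ± 10.1 CPM with no overlap and did not pass (adjusted p = 0.0506, edgeR). Apobec3 stood at 65.0 ± 4.39 and 71.4 ± 3.36 CPM (adjusted p = 0.0914, edgeR).

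Among partners of PKR and ZBP1, 3 of 10 rose, against 5.33% over all genes tested. Mlkl, whose product permeabilises the membrane in necroptosis, rose 1.23-fold, from 13.0 ± 0.946 to 16.0 ± 0.808 CPM (adjusted p = 0.00624, edgeR). Dnajc3, which encodes a chaperone known to inhibit PKR, rose 1.09-fold (adjusted p = 0.0245, edgeR), as did Casp8, which encodes a caspase that restrains necroptosis (adjusted p = 0.0466, edgeR). The calls of Dnajc3 and Casp8 were lost in 6 and 12 of 21 alternatives, without CYR61 replicate 2, without CYR61 replicate 3 and without control replicate 3 among them. The heme-regulated eIF2 kinase gene Eif2ak1 stood at 92.4 ± 3.32 and 96.3 ± 2.64 CPM and did not pass.

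Of 11 genes of the endosomal sensors, which detect nucleic acids taken up from outside, 4 rose, against 5.33% over all genes tested. Myd88, the adaptor of most Toll-like receptors, rose 1.21-fold, from 62.5 ± 2.48 to 75.6 ± 2.6 CPM (adjusted p = 6.65e-05, edgeR). Tlr3, a receptor of duplex RNA, rose 1.19-fold (13.8 ± 0.817 to 16.4 ± 1.07 CPM, adjusted p = 0.0168), Irak4 1.11-fold (61.6 ± 2.37 to 68.7 ± 3.65 CPM, adjusted p = 0.016) and Unc93b1, which carries these receptors to endosomes, 1.10-fold (853 ± 23.3 to 934 ± 24.9 CPM, adjusted p = 0.0081; all edgeR). The calls of Tlr3 and Irak4 were lost without CYR61 replicate 2, and that of Irak4 also without CYR61 replicate 3. That of Tlr3 was lost as well in the 8 libraries numbered 1 to 4, with or without pairing, and those of Irak4 and Unc93b1 were lost without the TMM factors.

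**Figure D5:**
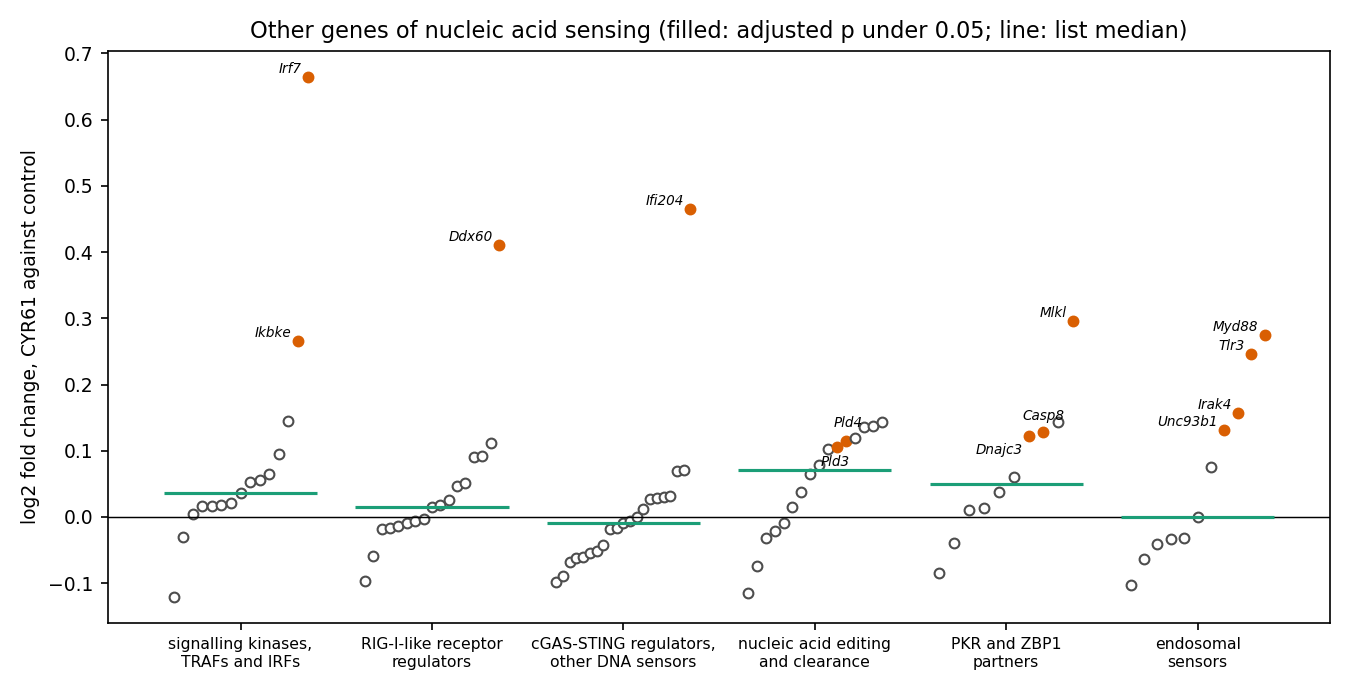
Log2 fold change with CYR61 of the 90 tested genes in 6 lists of other nucleic acid sensing genes. Each point is a gene, filled and named where the adjusted p was under 0.05, and lines are list medians; the 13 filled points are all above 0, and Irf7 (0.66) is the highest.

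None of the 9 type I and type III interferon genes in the last list had enough counts to be tested. Ifnb1, the interferon that these routes induce first, had 2 counts over the 7 control libraries and 3 over the 4 CYR61 libraries. Ifnk had 66 counts over the control libraries and 23 over the CYR61 libraries, with at most 13 in a library. The other 7 genes, Ifna1, Ifna2, Ifna4, Ifna5, Ifne, Ifnl2 and Ifnl3, had 0 counts in every library, which allows up to 3 counts in a library, or 0.14 to 0.197 CPM. With so few counts, a difference in the interferon transcripts was not tested in the main fit. Such limits cover counting error only.

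Markers were examined beside these results. Of the 7 macrophage markers, 5 rose (Adgre1, Csf1r, Itgam, Lyz2 and Mrc1) and 2 did not pass. Over all genes tested 5.33% were called higher, and 7.87% of those averaging 10 CPM or more. The summed level of the macrophage markers was 22370 to 23733 CPM in control and 24677 to 26992 CPM in CYR61 libraries. Of 37 markers of 7 other cell types, 9 had enough counts to be tested and 1 was called: S100a8, a neutrophil and monocyte gene, at 0.97 ± 0.264 and 1.69 ± 0.153 CPM. The summed neutrophil list ran from 0.634 to 1.34 CPM in control and 1.61 to 2.02 CPM in CYR61 libraries, with Ly6g at 0 counts in every library. Summed levels of the conventional dendritic cell (up to 2.24 CPM), T and NK cell (up to 1.33 CPM), B cell (up to 0.951 CPM), stromal (up to 1.13 CPM) and endothelial lists (up to 6.48 CPM) overlapped between the groups. The plasmacytoid dendritic cell list overlapped as well and came almost wholly from Tcf4 (182 and 179 CPM), while its defining marker Siglech had 20 counts over the controls and 0 over the CYR61 libraries. The part of the macrophage and S100a8 differences in the rise of the sensor genes was not tested. Ribosomal RNA took 2.41% of the counts of CYR61 replicate 4 and at most 0.797% of any other library, and without that library 7 of the 10 genes rose, Sting1 being the call lost.

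The authors' deposited table gives log2 fold changes close to those above, from 0.953 for Zbp1 to -0.0552 for Cgas. Of the 10 genes, 9 have an adjusted p under 0.05 in the authors' deposited table, Mavs being the one of these not called here.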

How the data were processed

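The submitters' processing notes name DRAGEN, without its role or version. Build and gene annotation were not given in the sources used here. What the authors deposited were estimated counts per gene, not normalized, and a table of their own comparison, from which the deposited log2 fold changes and adjusted p-values of the 10 genes were copied. Groups came from the labels. Of 55774 rows, 287 repeated a gene ID with identical values and were dropped. Rounded counts went into edgeR 4.0.16 under R 4.3.3 (filterByExpr, TMM, glmQLFit and glmQLFTest, 7 control against 4 CYR61 libraries, two-sided, no covariates, Benjamini-Hochberg over 15135 genes). The SE is the log2 fold change divided by the square root of F. Fractional counts can come from reads shared between genes, and the levels of genes that have them are uncertain. Overlap and fractional counts did not always go together. The exons of Eif2ak2 overlap those of n-R5s29 and Gm26637 on the opposite strand, and its counts were fractional in 0 libraries. Strandedness is not stated. Alternatives used DESeq2 1.42.0, limma 3.58.1, other scaling, filters, thresholds and libraries left out. The edgeR script was tested on simulated data. The members and lists were chosen with earlier results of these data known. Named from each list were up to 4 genes, taken in order of p among those averaging 1 CPM or more, and the macrophage markers and other markers at 1 CPM or more; Tbk1, Irf3, Dnase1l1, the interferon genes, Siglech and Ly6g, and the comparison with genes averaging 10 CPM or more, were added after their values were seen. A planned comparison of protein sequences was not run.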

Additional observations from a re-analysis of the deposited data

Results flagged for a closer look

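In 32 groups of values (10 genes and 6 ratios in 2 groups), 4 had a library set apart from the rest by a gap above Dixon's 95% critical value, where chance flags about 1 in 20 groups. Control replicate 6 had the lowest Ifih1 level, 54.0 CPM against 61.1 to 65.1 CPM in the other controls. Control replicate 1 had the lowest Sting1 level, 38.9 CPM against 42.4 to 44.2 CPM. CYR61 replicate 2 had the highest Trex1 level, 96.6 CPM against 89.1 to 90.2 CPM. CYR61 replicate 3 had the highest ratio of Cgas to Trex1 counts, 0.174 against 0.162 to 0.163. Ifih1, Sting1 and Trex1 were each called higher in the fit without the library named for them.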

How the results depend on the processing

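Over 22 alternatives the count of the 10 genes called higher was 7 or 8 and that called lower was 0; 6 of the 8 calls held in all 21 alternative fits, and Sting1 and Dhx58 were lost as described. At an adjusted p under 0.01, 7 of the 10 genes, 7 genes of the other lists and 640 of all genes were called. Leaving out 1 library gave 788 to 1372 genes in all, against 1204, and 7 to 14 genes of the other lists, the lowest without CYR61 replicate 2. Scaling by library size alone called 529 genes higher and 938 lower, against 806 and 398, and took the median over all genes from -0.0076 to -0.052 on the log2 scale and that over the 10 genes from 0.26 to 0.22. Leaving out 1 library gave log2 ratio differences of 0.13 to 0.21 (Ifih1/Mavs), 0.18 to 0.26 (Ddx58/Mavs), 0.25 to 0.36 (Dhx58/Mavs), -0.30 to -0.21 (Cgas/Sting1), -0.43 to -0.33 (Cgas/Trex1) and 0.73 to 0.85 (Zbp1/Eif2ak2); Ifih1/Mavs passed without control replicate 1 or CYR61 replicate 3.

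Replicate numbers 1 to 4 occur in both groups, but same-numbered libraries did not deviate together (correlations -0.081 to 0.058), and no CYR61 library correlated best with the control of its own number. With the number as a replicate block in those 8 libraries, edgeR called 1261 genes, 8 of the 10 higher. The paired log2 ratio differences were 0.21 (Ddx58/Mavs), 0.35 (Dhx58/Mavs), -0.34 (Cgas/Sting1), -0.49 (Cgas/Trex1) and 0.83 (Zbp1/Eif2ak2), none of which can pass, since the smallest p of 4 pairs is 0.125. The depth limits what can be said of genes with few counts, such as the interferon genes.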
